A study of Mus musculus with 3 samples.

Results

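Gene expression in the E3R culture of reverted epiblast stem cells was compared with that in CGR8 embryonic stem cells, both kept in the same medium, by 1 Illumina bead array each. The comparison thus used 2 of the 3 arrays of the study, and all probes with a gene symbol entered: of 16593 genes on the array, 7286 had a value. E3R cells carry the cell line label E3, with a hybrid genetic background, and were reverted from E3 epiblast stem cells toward an embryonic stem cell-like state, as the study's title says; the labels do not say how. CGR8 is a feeder-independent mouse embryonic stem cell line, and the labels name no strain for it. Both cultures grew on gelatin, without feeder cells, in KSR medium with the MEK inhibitor PD0325901 at 1 µM, the GSK3 inhibitor CHIR99021 at 3 µM and 1000 U of LIF, were marked as untreated otherwise and were harvested on the dish. The remaining array, from unreverted E3 epiblast stem cells on embryonic fibroblast feeders with 5 ng/ml FGF2, was normalized with the other 2 and its values are given for reference. Each group is 1 culture on 1 array, so that no test across samples exists and only sizes are given. Cell line, the history of reversion and any difference in genetic background go together between the arrays and cannot be told apart.

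Mouse pluripotent cells are kept in culture in a naive state, as embryonic stem cells of the preimplantation epiblast, or in a primed state, as epiblast stem cells of the postimplantation embryo. Blocking MEK and GSK3 in the presence of LIF holds the naive state, in which factors such as Esrrb, Klf4, Tbx3 and Zfp42 act beside the core factors Oct4, Sox2 and Nanog. Epiblast stem cells depend on FGF and Activin signalling and express Fgf5, Otx2 and Pou3f1. Cultures of naive cells can also hold cells that express genes of the primitive endoderm, the extraembryonic layer beside the epiblast, such as Gata6, Dab2, laminin and type IV collagen genes.

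Each array held 25697 probes, of which 38.9% were detected above negative controls on the E3R array and 38.4% on the CGR8 array. Raw signals had medians of 85.3 and 92.9 intensity units and started at 66.5 and 69.8, so that a raw signal near 100 units is close to background. Signals were background-corrected, quantile-normalized and put on a log2 scale, and a gene with several probes is represented by its brightest probe. Errors given are bead standard errors, which cover the spread over the beads of 1 array and no spread between cultures, extracts or arrays. Where only 1 of the 2 arrays detected a probe, the other entered at its detection floor and the difference is a bound, written as "at least". The male-specific gene Eif2s3y was within 2-fold on the 2 arrays (log2 8.42 and 8.45) and also present on the E3 array (8.42), and Xist was detected on none.

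Most genes had similar signals on both arrays. In E3R cells 132 genes were higher than in CGR8 cells by 2-fold or more (1.81% of all genes tested) and 112 were lower (1.54%), together 3.35%. Scaling to a common median in place of quantile normalization moved the median of all genes by −0.15 on the log2 scale and the split to 85 higher and 186 lower genes. Background correction enlarges the differences of dim genes: without it, 38 genes were higher and 37 lower, and named genes that this took under 2-fold are pointed out. Among 6519 genes detected on both arrays the median log2 difference was 0.00, the quartiles were −0.25 and 0.24, and 86.2% lay within 1.5-fold. Large differences were few: 4-fold was reached by 10 higher and 6 lower genes, and 8-fold by 5 higher and 0 lower genes. The balance at 4-fold depended on the normalization. With common-median scaling Eno2 and Nfatc4 fell under 4-fold upward (log2 1.92 and 1.83), while genes such as Krt8 and Emp1 passed it downward (−2.15 and −2.12). Each of the 214 genes past 2-fold that were detected on both arrays differed by more than 3 bead standard errors, but so did 1875 genes within 2-fold, so that bead error alone does not set a called gene apart. The log2 signals correlated with a Pearson r of 0.974 across these 6519 genes, which are not independent replicates. Dim genes differed more often than bright ones: 3.91% of genes with a mean log2 signal under 7 were past 2-fold, 3.95% between 7 and 9, 1.63% between 9 and 11, and 1.29% above 11.

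**Figure D1:**
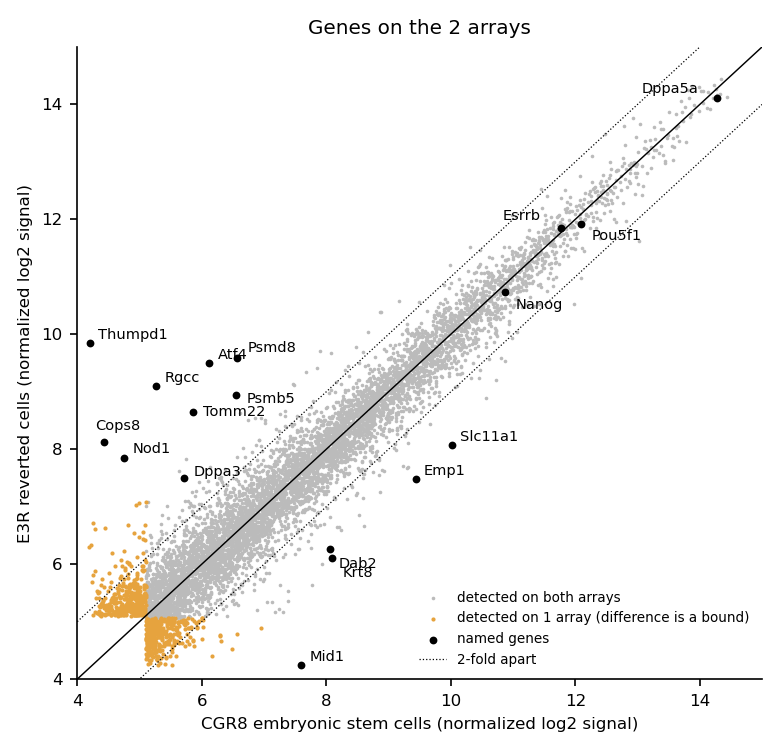
Normalized log2 signal of each gene on the CGR8 array (x axis) and the E3R array (y axis), with genes detected on both arrays in grey, genes detected on 1 of them in orange and named genes in black. The solid line marks equal signal and the dotted lines a 2-fold difference; Thumpd1, Rgcc, Atf4, Psmd8 and Cops8 lie farthest above it and Mid1 farthest below, while Esrrb, Pou5f1, Nanog and Dppa5a lie near it.

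The plot of both arrays against each other shows the bulk of genes inside the 2-fold lines, with the outlying genes mainly at low to middling CGR8 signals. The 5 genes chosen as markers of this comparison were Thumpd1, Atf4 and Dppa3, higher in E3R cells, and Krt8 and Dab2, lower in them. They were picked with the result known, and their values below describe the arrays. Each also counts in the gene lists that hold it, so that the shares of those lists are a description as well.

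Naive pluripotency genes were mostly within 2-fold between E3R and CGR8 cells, as were genes in general. Esrrb, an orphan nuclear receptor gene, had raw signals of 3312 units in E3R, 3671 in CGR8 and 110.2 in E3 cells, and log2 levels of 11.85, 11.77 and 5.41. For Tbx3, a T-box factor downstream of LIF, the log2 levels were 9.68, 9.42 and 4.29 in the same order. Both genes were thus about as bright in the reverted culture as in embryonic stem cells, at differences of 0.08 (bead standard error 0.07) and 0.26 (0.09), and far dimmer on the E3 array. Of 33 naive genes on the array 29 had a value, and 27 of these were within 2-fold (93.1%, against 96.7% of all genes tested), with a median log2 difference of 0.08 against 0.01 over all genes tested (−0.05 with common-median scaling). Dppa3 was the 1 gene past 2-fold upward and Spic, an Ets-family transcription factor gene, the 1 downward, at 2.33-fold or more (raw 88.9 in E3R and 152 in CGR8 cells), under 2-fold without background correction.

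Members of the naive list inside 2-fold leaned both ways. The Kruppel-like factor genes Klf2, Klf4 and Klf5 were higher in E3R cells by 0.50, 0.50 and 0.56 on the log2 scale. Dppa4, a chromatin-associated pluripotency gene, was higher by 0.73, and the oocyte-expressed gene Ooep by 0.44. Dnmt3l, the cofactor of de novo DNA methylation, was lower, with raw signals of 3572 units in E3R and 6465 in CGR8 cells and a difference of −0.70 (bead standard error 0.08). Zfp42, also called Rex1, differed by −0.45 and the X-linked homeobox gene Rhox5 by −0.51. Dppa5a, an oocyte and embryonic stem cell RNA-binding protein gene, reached a log2 level of 14.12 in E3R and 14.28 in CGR8 cells, a difference of −0.16. Nr0b1, Prdm14, Esrrg and Zscan4c were detected on neither array.

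Primed pluripotency genes were in part undetected. Of 32 on the array 13 (40.6%) were detected in neither E3R nor CGR8 cells, a smaller share than the 56.1% of all genes on the array without a value, among them Fgf5, Fgf8, Pim2, Cer1, Foxa2 and Sox17. Of the 19 with a value 4 were past 2-fold, 2 higher and 2 lower (21.1% against 3.35% of all genes tested), with a median difference of 0.18 (0.03 with common-median scaling). The hormone precursor gene Trh was 2.46-fold higher in E3R cells (log2 7.87 against 6.57, and 13.92 in E3 cells). The Nodal antagonist gene Lefty1 was 2.05-fold higher (8.39 against 7.35, and 12.01 in E3 cells). Both stood far below the E3 array, and both were under 2-fold without background correction (0.90 and 0.80). Lefty1 was under 2-fold with common-median scaling too (0.86). Otx2, the homeobox factor of the primed epiblast, was lower in E3R than in CGR8 cells, with log2 levels of 8.05 and 8.61 and a difference of −0.56. Pou3f1 (Oct6) had levels of 5.78 and 5.54 near the detection floor, against 9.17 in E3 cells, and the de novo methyltransferase gene Dnmt3b differed by 0.21. The keratin genes Krt8 and Krt18, which the list also holds, were the 2 past 2-fold downward.

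The core factor genes Pou5f1, Nanog and Sox2 differed little between the arrays. Pou5f1, which encodes Oct4, had raw signals of 3487 units in E3R and 4606 in CGR8 cells and a log2 difference of −0.17 (bead standard error 0.06). Nanog differed by −0.14 and Sox2 by 0.03. Of 15 shared genes with a value 2 were past 2-fold (13.3% against 3.35%), with a median of 0.21 (0.01 with common-median scaling). L1td1, which encodes a LINE-1-derived RNA-binding protein, was 3.02-fold higher in E3R cells, with raw signals of 794 against 360.4 units and 1253 in E3 cells. Tdgf1, the Nodal co-receptor Cripto, was 2.06-fold lower by its brighter probe, whereas its other probe differed by −0.08, and the call was lost without background correction. The chromatin factor gene Utf1 was higher by 0.83 and Lin28a, an inhibitor of let-7 maturation, by 0.52 (0.21 with the mean of its probes), both inside 2-fold.

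**Figure D2:**
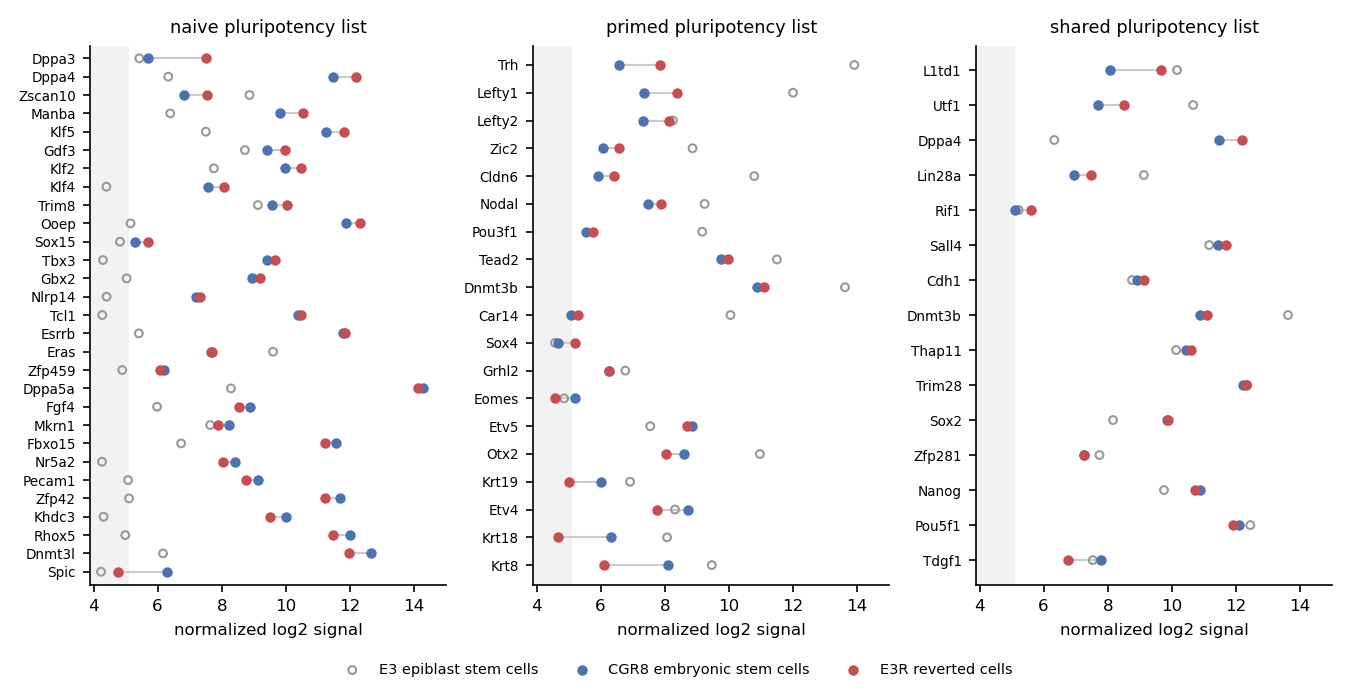
Normalized log2 signal (x axis) of every gene with a value in the naive, primed and shared pluripotency lists, in E3R (red), CGR8 (blue) and, for reference, E3 cells (open circles), sorted by the difference between E3R and CGR8. The grey band ends at the E3R detection floor; red and blue points nearly coincide for most genes, whereas Dppa3, Spic, Trh, Krt18, Krt8, L1td1 and Tdgf1 are set apart.

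The plot of the 3 pluripotency lists shows E3R and CGR8 points side by side in all 3, including the naive genes that lay near background in E3 cells.

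The largest difference was that of Thumpd1, the adaptor that brings the acetyltransferase Nat10 to tRNA. Its raw signal was 883 units in E3R, 77.4 in CGR8 and 896 in E3 cells. CGR8 cells gave no signal above negative controls, so that E3R cells were at least 26.7-fold higher (log2 4.74, and 3.29 without background correction). In bulk RNA a gene expressed by fewer cells and one with less RNA in each cell cannot be told apart, here or in the comparisons that follow. Probes were not checked for sequence differences between the lines or for cross-hybridisation, and the part of either in these signals was not tested. Nat10 itself differed by at least 0.18 on the log2 scale in the other direction. Of 25 genes of tRNA and rRNA modification with a value, Thumpd1 was the 1 past 2-fold (4.0% against 1.81% of all genes) and the median was 0.11 (−0.06 with common-median scaling). Ctu1 and Ctu2, which thiolate tRNA, followed at 0.77 (a bound) and 0.76.

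Rgcc, a regulator of cell cycle progression first described as a complement response gene, had raw signals of 547 units in E3R, 110.0 in CGR8 and 117 in E3 cells. It was 14.2-fold higher in E3R than in CGR8 cells (log2 3.83, bead standard error 0.21, 2.55 without background correction) and brightest in E3R cells. Nod1, an intracellular sensor of bacterial peptidoglycan, was detected in E3R cells alone, with 269.5 units against 97.1 and 88.1. The bound for Nod1 was 6.73-fold or more (log2 2.75, 1.56 without background correction).

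Other large upward differences were in genes that the E3 array detected too. Eno2, the neuronal enolase gene, had raw signals of 265, 126 and 300.5 units in E3R, CGR8 and E3 cells and was 4.21-fold higher in E3R than in CGR8 cells. For Clasrp, an SR-like splicing regulator gene, the signals were 239, 122 and 164 (3.98-fold). Ccnd1, which encodes cyclin D1, gave 560.0, 258 and 1460.1 units and was 3.20-fold higher in E3R cells, and its 3 probes differed by 1.68, 1.46 and 0.91. In each of these, E3R cells were brighter than CGR8 cells, and E3 cells were brighter than CGR8 cells as well. Pygb, the brain isoform of glycogen phosphorylase, was at least 3.94-fold higher. Olig1, a transcription factor gene of oligodendrocytes, was at least 3.89-fold higher, the spindle gene Dlgap5 at least 3.82-fold, and Haus1, of the microtubule-nucleating augmin complex, 3.85-fold; these 3 and the zinc finger gene Zfp869 (3.76-fold) fell under 2-fold without background correction. Thap4 at 3.41-fold and the GTPase gene Gpn2 at 3.23-fold completed the 20 largest with genes described below.

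**Figure D3:**
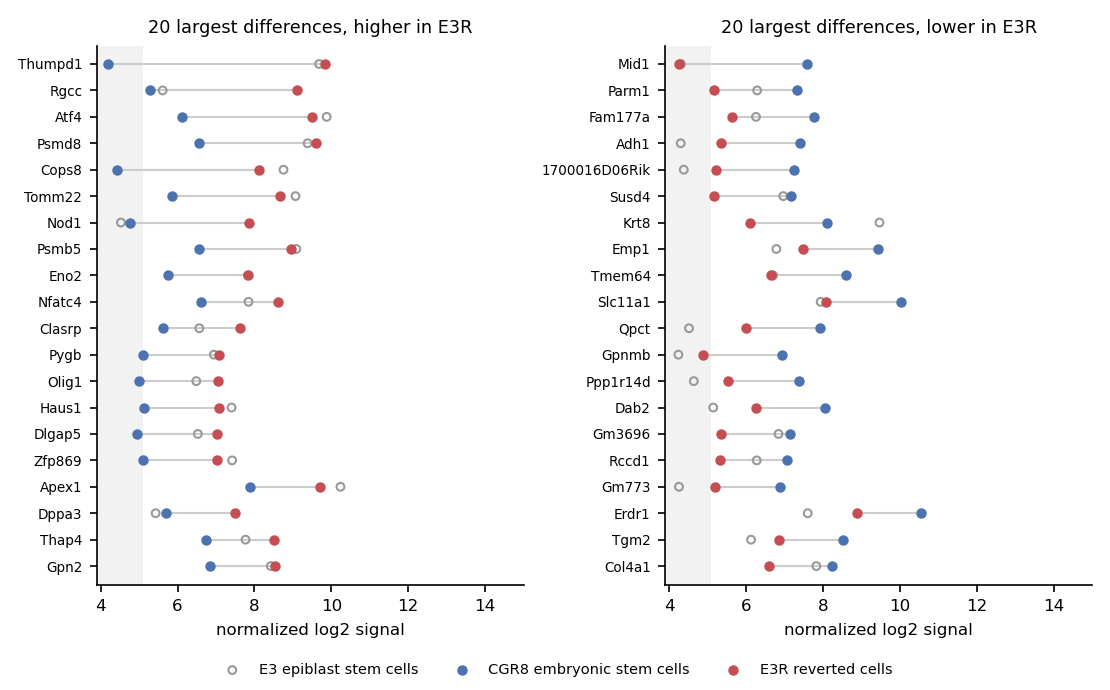
Normalized log2 signal (x axis) of the 20 genes with the largest difference upward (left) and downward (right) between E3R (red) and CGR8 cells (blue), with E3 cells as open circles for reference; the grey band ends at the E3R detection floor. On the left Rgcc, Nod1 and Dppa3 have open circles near the blue points, and most others have them nearer to the red ones; on the right the open circles of Krt8 and Susd4 are near or above the blue points and those of Mid1, Emp1 and Slc11a1 near or below the red ones.

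The plot of the 20 largest differences each way sets the E3 signal beside them. E3R and E3 cells share a line, and the differences of both from CGR8 use the same CGR8 array, so that nothing is counted from their likeness.

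Atf4, the effector of the integrated stress response, was among the genes farthest apart. Translation of Atf4 rises when eIF2alpha is phosphorylated, and the protein then activates genes of amino acid synthesis, transport and tRNA charging, often through C/EBP-ATF response elements. Its raw signal was 717 units in E3R, 143 in CGR8 and 1021 in E3 cells, and it was 10.4-fold higher in E3R than in CGR8 cells (log2 3.38, bead standard error 0.15, 2.54 without background correction). Of 41 genes of the response with a value, 5 were higher by 2-fold or more and 0 lower, or 12.2% against 1.81% of all genes tested. These 5 include Atf4 itself, a marker picked with the result known. The median of the list was 0.31 (0.18 with common-median scaling). Chac1, which degrades glutathione, was 2.47-fold higher, with raw signals of 849.9 units in E3R, 453 in CGR8 and 2773 in E3 cells. Cebpb, a partner of Atf4, was 2.36-fold higher (399 against 243 units). Aldh18a1, of proline synthesis, was 2.22-fold higher (352 against 227), and Phgdh, the first enzyme of serine synthesis, 2.14-fold (691 against 423). Of these, Atf4 and Chac1 remained past 2-fold without background correction, and the other 3 did not. With common-median scaling Aldh18a1 and Phgdh were under 2-fold as well (0.97 and 0.93). Not all genes of the list differed in this way: asparagine synthetase, Asns, differed by 0.18, and Ddit3, which encodes the stress factor CHOP, by −0.51. Trib3, an inhibitor of Atf4 activity, was higher by 0.81, Atf5 by 0.83 and the cysteinyl-tRNA synthetase gene Cars by 0.89, all inside 2-fold.

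The promoters of these genes were searched for the core of the C/EBP-ATF response element, TGATGNAA on either strand, in the 250 bases before each RefSeq start site (GRCm38.p6). The motif was in the windows of 9 of 35 list genes with both a value and a window (25.7%), against 3.91% of 27025 genes. The list holds known Atf4 targets, which often carry this element, so that the higher share is no result of the arrays. The median difference was 0.35 for the 9 genes and 0.35 for the other 26, and 1 and 4 of them were past 2-fold. The windows of 3 genes are shown because these genes are known Atf4 targets with a match: Chac1 was past 2-fold on the arrays, Aars, an alanyl-tRNA synthetase gene, was higher by 0.56, and Asns by 0.18. Capitals mark the motif, which lies on the opposite strand in Chac1 and Aars. The windows are chr2:119350992-119351241 on the plus strand for Chac1, chr6:7693210-7693459 on the minus strand for Asns and chr8:111033592-111033841 on the plus strand for Aars, each printed 5′ to 3′ along its gene.
Chac1: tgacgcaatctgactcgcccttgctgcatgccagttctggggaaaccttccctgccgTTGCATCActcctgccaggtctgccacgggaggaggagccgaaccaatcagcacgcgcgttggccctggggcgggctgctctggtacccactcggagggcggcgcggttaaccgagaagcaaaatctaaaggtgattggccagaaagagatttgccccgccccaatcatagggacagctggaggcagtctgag
Asns: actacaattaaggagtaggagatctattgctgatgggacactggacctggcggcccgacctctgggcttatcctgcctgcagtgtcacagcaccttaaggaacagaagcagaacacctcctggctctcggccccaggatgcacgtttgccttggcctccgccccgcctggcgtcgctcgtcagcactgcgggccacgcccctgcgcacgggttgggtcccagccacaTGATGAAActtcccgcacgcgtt
Aars: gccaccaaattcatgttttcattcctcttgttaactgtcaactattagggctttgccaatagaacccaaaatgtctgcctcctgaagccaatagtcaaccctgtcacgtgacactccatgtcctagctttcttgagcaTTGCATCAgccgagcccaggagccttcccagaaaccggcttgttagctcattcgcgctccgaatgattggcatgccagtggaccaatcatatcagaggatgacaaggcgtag
The matches start 193, 23 and 112 bases before the start site. A match is a description of these letters and says nothing of binding.

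Single subunits of several large complexes were past 2-fold while most of their partners were not. Psmd8, a subunit of the proteasome's regulatory particle, had raw signals of 755 units in E3R, 171 in CGR8 and 746 in E3 cells, and was 8.16-fold higher in E3R than in CGR8 cells (log2 3.03, bead standard error 0.16). Psmb5, the catalytic subunit with chymotrypsin-like activity, gave 497, 170.3 and 621 units (5.23-fold). Psme1, of the proteasome activator PA28, was 2.06-fold higher, under 2-fold without background correction and with common-median scaling. Both Psmb5 and Psme1 lie on chromosome 14. These were 3 of 42 proteasome genes with a value (7.14% against 1.81% higher over all genes); the other 39 were within 2-fold, and the median of the list was −0.05. Psma4 at −0.63 and the deubiquitinase gene Uchl5 at −0.79 were the lowest.

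In the COP9 signalosome, which removes Nedd8 from cullins, Cops8 had raw signals of 309 units in E3R, 88.7 in CGR8 and 514 in E3 cells. It was undetected in CGR8 cells and at least 8.10-fold higher in E3R cells (log2 3.02, 1.78 without background correction). It was the 1 of 9 subunits past 2-fold (11.1% against 1.81%), and the other 8 lay between −0.36 for Cops6 and 0.22 for Cops3. Tomm22, a receptor of the mitochondrial outer membrane translocase, gave 417, 131 and 614 units and was 6.96-fold higher in E3R than in CGR8 cells. Of 23 mitochondrial import genes with a value it was the 1 past 2-fold (4.35% against 1.81%), and the next, the inner membrane translocase gene Timm21, was higher by 0.75. Thumpd1, Psmd8, Cops8, Tomm22 and Atf4 were each measured by 1 probe, and the part of sequence differences between the lines was not tested.

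Chromosome 14 differed from the other chromosomes. Of its 209 genes detected on both arrays 29 (13.9%) were higher in E3R cells by 2-fold or more and 6 lower, and the median difference was 0.27. The medians of the other autosomes and the X chromosome lay between −0.06 and 0.11. The higher genes were concentrated in a run of neighbours from Armh4 to Med4, whose ends were set on these same values. In it 25 of 90 genes (27.8%) were at least 2-fold higher and 0 lower, with a median of 0.61, quartiles of 0.37 and 1.05, and 79 genes above 0. Outside the run 1.32% of 6429 genes were at least 2-fold higher, and the median of the other 119 genes of chromosome 14 was 0.01. The median of the run was 0.43 without background correction, with 12 genes past 2-fold, and 0.44 with common-median scaling, with 16 genes past 2-fold.

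**Figure D4:**
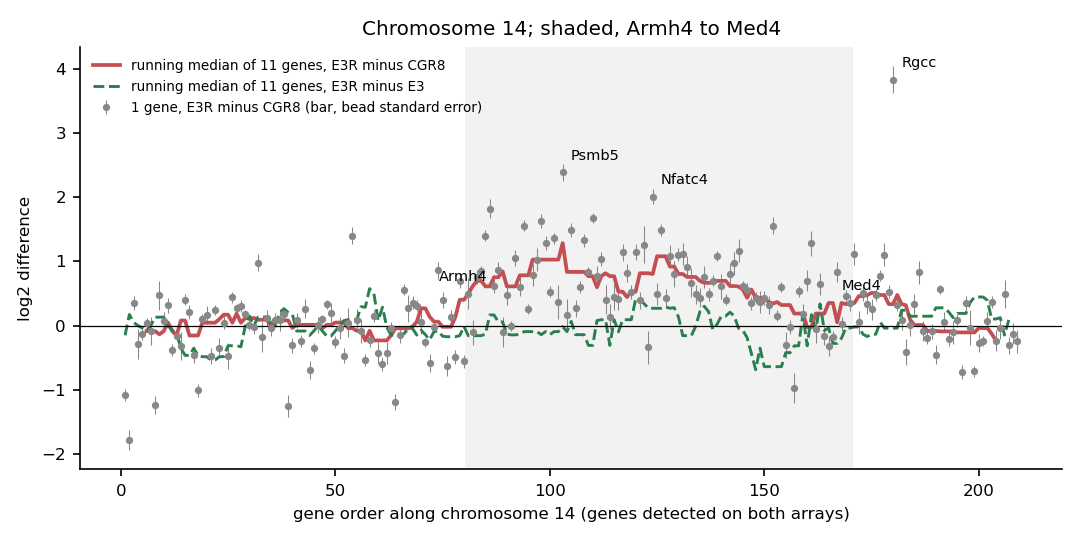
Log2 difference of E3R minus CGR8 cells (y axis) for 209 genes in their order along chromosome 14 (x axis), with bead standard errors as bars; the red line is the running median of 11 genes and the green dashed line the same for E3R minus E3 cells. Shading marks Armh4 to Med4, where the red line is above 0 at 88 of 90 genes and the green line lies between −0.69 and 0.41, on both sides of 0; Rgcc lies beyond Med4.

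In blocks of 10 genes along the chromosome, medians before Armh4 lay between −0.14 and 0.12. They were 0.90 from Hnrnpc to Lrp10, 1.08 from Prmt5 to Zfhx2 and 0.94 from Dhrs1 to Eef1akmt1, and 0.25 and 0.19 in the last 2 blocks up to Med4. Beyond it the median was 0.52 from Esd to Rgcc and between −0.13 and −0.04 from Naa16 on. The difference between E3R and E3 cells, which share a line, had a median of −0.04 over the 87 genes of the run also detected in E3 cells, and that between E3 and CGR8 cells a median of 0.74; both reuse an array of the comparison. Over 1236 overlapping windows of 20 genes in the genome, 16 had a median above 0.5, 13 of them on chromosome 14 and 3 on chromosome 13, and 0 had one below −0.5. Those on chromosome 13 ran from Elmo1 to H3c6, H2ac15 to H1f2 and H2ac12 to Aldh5a1, over histone genes described at the end. Copy number was not measured, and the part of sequence differences between the lines was not tested.

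Genes of the run had varied functions. Besides Psmb5 at 5.23-fold, Nfatc4, a transcription factor activated by calcineurin, was 4.02-fold higher (411 units in E3R, 174 in CGR8 and 303 in E3 cells). Apex1, the endonuclease of base excision repair, was 3.53-fold higher (818, 326 and 1304 units), and its second probe differed by 1.12. Zfhx2, a zinc finger homeobox gene, was 3.20-fold higher, with CGR8 and E3 cells alike (648, 289 and 295 units). The mitochondrial ribosome gene Mrpl52 was 3.10-fold higher, the RNA N6-adenosine methyltransferase gene Mettl3 2.94-fold, the paraneoplastic antigen gene Pnma2 2.94-fold (under 2-fold without background correction) and Osgep, of tRNA threonylcarbamoyladenosine synthesis, 2.64-fold. The predicted genes Gm5801 and 1700123O20Rik were 2.82-fold and 2.81-fold higher.

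Dppa3, also called Stella, which protects the maternal genome from demethylation and marks early germ cells, was the naive gene farthest apart. Its raw signal was 225 units in E3R, 125 in CGR8 and 111 in E3 cells, with log2 levels of 7.50, 5.71 and 5.43. It was 3.46-fold higher in E3R than in CGR8 cells (log2 1.79, bead standard error 0.19, 1.06 without background correction), and CGR8 and E3 cells were both near background. The median over 19 germ cell genes with a value was 0.01 (−0.25 with common-median scaling). Of them 3 were higher by 2-fold or more (15.8% against 1.81%), the picked marker Dppa3 among them, and 0 lower. The other 2 were Piwil2, of the piRNA pathway, at 2.44-fold (143 against 108 units), which lies in the chromosome 14 run, and the Tudor-domain gene Tdrd12 at 2.26-fold (271 against 179.8). Both were under 2-fold without background correction. Dazl, a germ cell RNA-binding protein gene, differed by −0.49 and the testis tubulin gene Tuba3a by −0.80, on the lower side. The germ cell genes Ddx4, Sycp3, Mael and Nanos3 were detected on neither array.

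Keratins and other epithelial genes made up part of the genes lower in E3R cells. Krt8, the type II keratin of simple epithelia, had raw signals of 125 units in E3R, 366 in CGR8 and 788 in E3 cells. It was 3.98-fold lower in E3R than in CGR8 cells (log2 −1.99, bead standard error 0.15, −1.33 without background correction). Its partner Krt18 was at least 2.37-fold lower (87.2 against 154 units), and Krt19 differed by at least 1.93-fold in the same direction. E3R cells were thus lowest of the 3 cultures for both members of the keratin pair, and E3 cells highest. Emp1, a membrane protein of epithelial junctions, was 3.87-fold lower (223, 820.1 and 181 units in E3R, CGR8 and E3 cells), here with E3 cells lowest. Anxa2, a calcium-dependent membrane-binding protein gene, was 2.76-fold lower with bright signals on each array (1391, 4243 and 2170.1), and Anxa3 was 2.01-fold lower. Of 24 epithelial genes with a value these 5 were past 2-fold downward (20.8% against 1.54% of all genes) and 0 upward. Without background correction Krt18 and Anxa3 were under 2-fold. The other 19 lay on both sides of 0, with a list median of −0.09 for all 24. E-cadherin, Cdh1, differed by 0.22 and the desmosomal cadherin gene Dsg2 by 0.82 (0.24 with the mean of its probes).

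Several genes of extraembryonic endoderm were lower in E3R than in CGR8 cells. Dab2, an endocytic adaptor of primitive endoderm, had raw signals of 132 units in E3R, 358 in CGR8 and 102 in E3 cells, and was 3.49-fold lower (log2 −1.80, bead standard error 0.15, −1.22 without background correction). A second Dab2 probe differed by −0.78, and the third was detected on neither array. Gata6, the transcription factor that specifies primitive endoderm, gave 239, 601 and 120.5 units and was 2.47-fold lower. Col4a1 and Col4a2, the type IV collagen chains of basement membrane, were 3.10-fold (150.5 against 396 units) and 2.43-fold lower (106 against 191). P4ha2, a collagen prolyl hydroxylase gene, was 2.29-fold lower. Of 17 genes with a value these 5 were past 2-fold (29.4% against 1.54%) and 0 were higher by as much, with a median of −0.46. Without background correction Col4a2 and P4ha2 were under 2-fold and the median was −0.22, and over the 13 genes detected on both arrays it was −0.74. The laminin gene Lama1, at −0.98, and the nidogen gene Nid1, at −0.74, lay just inside 2-fold, and the lipoprotein gene Apoe was higher by 0.54.

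Not all defining genes of that layer were measurable. Gata4, Sox7, Sox17, Foxa2, Afp and Ttr were detected on neither array, and Pdgfra in CGR8 cells alone. Normalized signals summed over the 17 genes came to 4489 units in E3R, 5689 in CGR8 and 2293 in E3 cells. The part of other cell types in these differences was not tested. Of 15 basement membrane genes with a value, Col4a1 and Col4a2 were at least 2-fold lower (13.3% against 1.54%) and 0 higher, with a median of −0.29. Agrin (Agrn) and the type XVIII collagen gene Col18a1 went the other way, at 0.33 and 0.72 (0.34 for Col18a1 with the mean of its probes).

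The remaining large downward differences did not fall into 1 group. Mid1, an X-linked microtubule-associated ubiquitin ligase gene, was detected in CGR8 cells alone, with raw signals of 75.5 units in E3R, 278 in CGR8 and 82.0 in E3 cells, a bound of 5.78-fold or more. Slc11a1, a metal ion transporter of phagosomes, gave 302, 1204 and 320.3 units (3.85-fold lower). Its 2 probes detected on both arrays differed by −2.23 and −1.94, and its others were detected in CGR8 cells alone. Adh1, an alcohol dehydrogenase gene of retinol oxidation, gave 101, 249.5 and 81.8 units (4.09-fold lower). In all 3 of these genes CGR8 cells stood above both E3R and E3 cells. Parm1, a mucin-like membrane protein gene, was 4.41-fold lower by its brighter probe (−1.19 on the log2 scale with the mean of its probes), Fam177a 4.40-fold and Susd4, a regulator of complement, 4.05-fold. Tmem64 was 3.87-fold lower, the glutaminyl cyclase gene Qpct 3.83-fold, Tgm2, which crosslinks proteins, 3.20-fold, and Erdr1 3.20-fold. The phosphatase inhibitor gene Ppp1r14d was 3.59-fold and the predicted gene 1700016D06Rik 4.07-fold lower. Gpnmb (at least 3.69-fold), Rccd1 (3.29-fold) and the predicted genes Gm3696 (3.45-fold) and Gm773 (3.23-fold) were under 2-fold without background correction.

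Targets of the pathways that the medium acts on were compared next. Of 15 FGF-ERK response genes with a value 3 were past 2-fold (20% against 3.35% of all genes), 1 higher and 2 lower. Ier3, an immediate early gene, was 2.84-fold lower in E3R cells (588 against 1878 units, and 521 in E3 cells) and Fos 2.04-fold lower (115 against 193, and 685 in E3 cells), and Fos was under 2-fold without background correction. The ETS factor gene Etv4 differed by −0.96, the phosphatase gene Dusp6 by −0.30, and the list median was −0.39 (−0.19 without background correction). Ccnd1, described above, was the higher one. The LIF-STAT3 list had 18 genes with a value, 0 of them past 2-fold (against 3.35% of all genes), with a median of 0.04. The feedback inhibitor gene Socs3 differed by 0.09, Stat3 by −0.17 and the adhesion gene Icam1 by −0.72. Of 15 Wnt genes with a value, Ccnd1 and Notum, a secreted Wnt deacylase gene (2.57-fold, 202 against 134 units), were past 2-fold upward (13.3% against 1.81%), Notum not without background correction, and 0 downward, and the negative regulator gene Axin2 differed by 0.37. In the list of Nodal-Activin and BMP genes 2 of 18 were past 2-fold (11.1% against 3.35%), Lefty1 and Tdgf1 named above. Nodal differed by 0.42 and Bmp4 by −0.59.

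Metabolic lists had negative medians with most genes inside 2-fold. Of 28 glycolysis and hypoxia genes with a value, 1 was higher and 2 lower by 2-fold or more (10.7% against 3.35%), and the median was −0.34. The hypoxia-induced gene Ndrg1 was 3.10-fold lower in E3R cells, with 245 units against 751 in CGR8 and 636 in E3 cells. The phosphoglycerate kinase gene Pgk1 was 2.04-fold lower by its 1 probe, under 2-fold without background correction. That probe was dim on each array (111 units in E3R, 184 in CGR8 and 115 in E3 cells). The bright genes Aldoa, an aldolase, and Ldha, lactate dehydrogenase A, were lower by −0.84 and −0.65 on the log2 scale, while Eno2 was higher. Of 22 cholesterol synthesis genes with a value, 1 was past 2-fold, downward (4.55% against 1.54%), and the median was −0.43. The sterol transporter gene Stard4 was 3.08-fold lower (247 units in E3R, 757 in CGR8 and 658 in E3 cells), and the desaturase gene Scd1 and the demethylase gene Cyp51 differed by −0.98 and −0.76. Both list medians were negative under all settings tried, from −0.47 to −0.26 for glycolysis and from −0.56 to −0.28 for cholesterol synthesis.

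**Figure D5:**
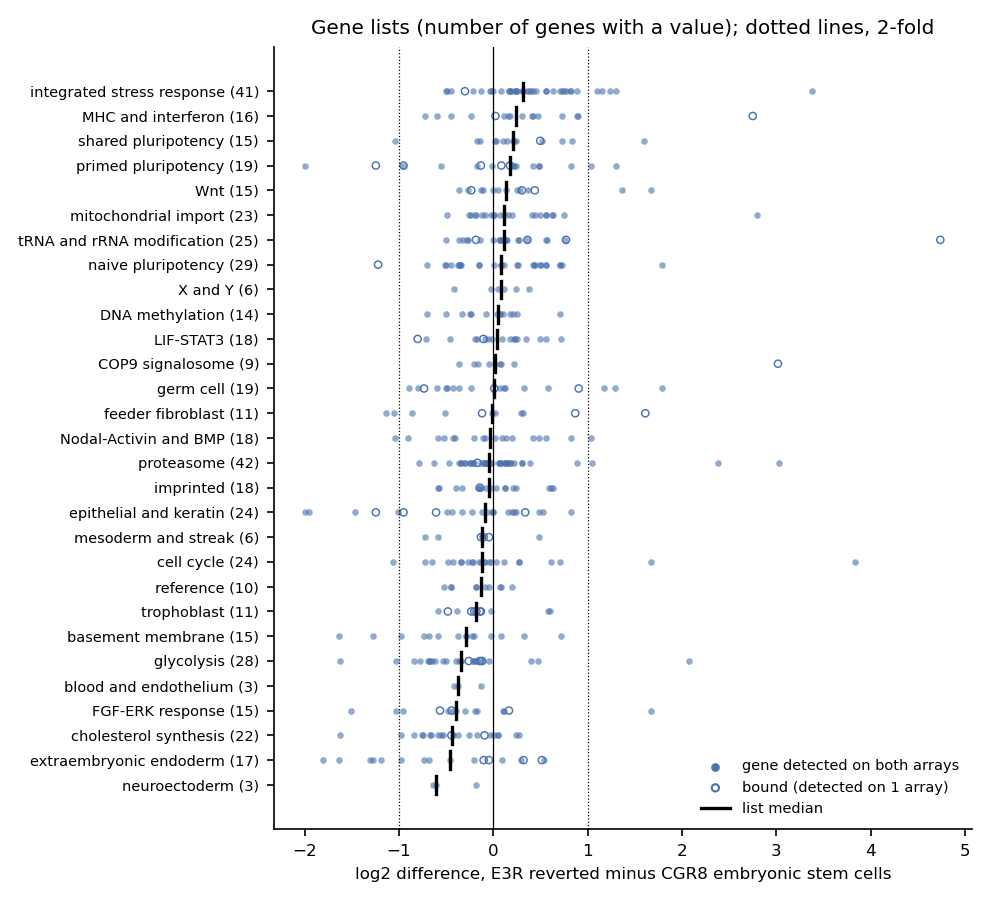
Log2 difference of E3R minus CGR8 cells (x axis) for every gene with a value in each list (rows, with the number of genes), as filled points for genes detected on both arrays and open points for bounds; black bars are list medians and dotted lines mark 2-fold. Medians run from 0.31 for the integrated stress response to −0.61 for 3 neuroectoderm genes. Single genes far from their lists include Thumpd1, Rgcc, Atf4, Psmd8, Cops8, Tomm22, Nod1, Psmb5 and Eno2.

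The plot of all gene lists shows medians within 2-fold throughout. Of 14 DNA methylation genes with a value 0 were past 2-fold, against 3.35% of all genes tested. The maintenance methyltransferase gene Dnmt1 differed by 0.18. None of 18 imprinted genes with a value was past 2-fold, against the same 3.35%. The growth factor gene Igf2 differed by −0.58 and the ubiquitin ligase gene Mkrn3 by 0.63. Of 24 cell cycle genes Ccnd1 and Rgcc were higher and Gadd45g, a growth arrest gene, was 2.10-fold lower, under 2-fold without background correction (12.5% past 2-fold against 3.35%). In the list of MHC and interferon genes Nod1, a bound, was the 1 of 16 past 2-fold (6.25% against 3.35%). All 10 reference genes with a value were within 2-fold (against 96.7% of all genes tested), from −0.52 for Hprt to 0.20 for Gusb.

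Markers of other cell types had no value for between 45.0% and 90.9% of a list's genes, against 56.1% of all genes on the array. Of 32 feeder fibroblast genes 21 (65.6%) had no value, among them Col1a1, Col1a2, Col3a1, Thy1, Pdgfrb, Postn and Lum. Serpinf1, a secreted serpin gene, was at least 3.06-fold higher in E3R cells, and Col5a1 and Igfbp7 were 2.20-fold and 2.07-fold lower, all 3 under 2-fold without background correction (3 of 11 past 2-fold, 27.3% against 3.35%). Of 21 neuroectoderm genes 18 had no value (85.7%), including Sox1, Pax6 and Nes, as had 16 of 22 mesoderm and streak genes (72.7%) and 14 of 17 of blood and endothelium (82.4%). Of 20 trophoblast genes 9 had no value (45.0%), and 0 of the other 11 were past 2-fold (against 3.35% of all genes tested). Of 11 genes of the 2-cell-like state 1 had a value, Eif1a, at 0.00.

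Bright genes differed least. Of 172 genes with a log2 signal above 12 on both arrays 1 was past 2-fold, against 3.35% of all genes tested. It was the histone gene H2ac12, at 2.02-fold (9636 units in E3R, 5842 in CGR8 and 13947 in E3 cells). H2ac12 was under 2-fold with common-median scaling, with both arrays normalized alone and in the authors' processed values. The next were H2ac15, H2ac10 and H2ac7, higher by 0.84, 0.83 and 0.83, and the ribosomal protein gene Rps15 at 0.68.

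A gene's probes mostly went the same way. Of the 244 genes past 2-fold, 157 were measured by 1 probe. In 39 others several probes were detected on both arrays, and all probes went in the same direction in 38 of these but passed 2-fold together in 13. Among the 16 genes past 4-fold 12 had 1 probe. Over 1646 genes with several probes detected on both arrays, the differences given by the probes of a gene spanned a median of 0.25 on the log2 scale.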

How the data were processed

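Total RNA of 3 cultures, 1 array each, was amplified from 400 ng over 12 h, labelled with Cy3 and hybridised to Illumina mouse bead arrays, per the labels. The deposited scanner table held raw bead-averaged signal intensities with bead standard errors and a detection p-value per probe, per the file headers, and was exported with BeadStudio, per the submitters' processing notes. The authors' processed table was an alternative: its ranks followed the raw ones (Spearman rho 1.000 over 12582 E3R probes), its medians were 80.9 and 80 and its lowest value 8, while its scale, centring and normalization are not stated. It left out 13115 and 13113 probes, of which 0 were detected.

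Signals of all 3 arrays were background-corrected on negative controls from the detection p-values (normexp, offset 16), quantile-normalized and log2-transformed with neqc in limma 3.58.1 (R 4.3.3). Later steps ran in Python 3.11.15 (numpy 2.4.6, pandas 2.3.3, scipy 1.17.1, matplotlib 3.10.9) and were tested on simulated data. A probe was detected below a detection p of 0.01. A probe detected on 1 array was bounded by the higher of its own signal and that array's lowest detected signal. Symbols of 23978 probes were updated through RefSeq gene IDs (GRCm38.p6), 23962 with a match, and 1719 probes had none. A gene took its brightest probe, which had to be detected on 1 of the 2 arrays, and past 2-fold was counted as different, with no test, since each group is 1 array. Of 902 entries in 30 gene lists 801 were on the array. Genes named were the 5 markers, the 20 with the largest difference each way, list members past 2-fold with 4 more per list, all pluripotency genes, 10 genes of the chromosome 14 run and 6 bright genes. Members, markers and lists were chosen with earlier results of these data known. Genes mentioned beyond this rule were chosen after their values were seen. Precision is limited by the number of arrays.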

Additional observations from a re-analysis of the deposited data

Results flagged for a closer look

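Probes without a gene symbol entered no comparison, and some of them carried signal. Of 1719 such probes 528 were detected on both arrays, and 14 of these were 2-fold or more apart, 11 higher and 3 lower in E3R cells. The probe ILMN_1255416 had raw signals of 96.5 units in E3R, 568 in CGR8 and 97.7 in E3 cells, a log2 difference of −3.68. ILMN_2946959 had 103, 244 and 89.8 units (−1.90). ILMN_2603837 had 501, 159 and 131 units (2.57), and ILMN_2603834 had 517, 164 and 136 (2.54). No gene is named for them here.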

How the results depend on the processing

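With other settings the counts of genes at least 2-fold higher and lower in E3R cells, 132 and 112, became 38 and 37 with no correction for background, 59 and 55 at an offset of 50, 85 and 186 with a common median in place of quantiles, and 219 and 210 with the authors' processed values, and a 3-fold threshold left 26 and 24. They were 132 and 112 with both arrays normalized alone, 148 and 122 at a detection p under 0.05, 110 and 104 among genes detected on both arrays, 120 and 103 when probes of a gene were averaged, and 107 and 112 without the chromosome 14 run, which was left out after seeing the data. Of the 244 genes, 75 remained past 2-fold in the same direction with no correction for background, 114 at an offset of 50, 197 with a common median and 243 in the authors' values, and 0 changed sign under any setting. Offset and correction act mainly on dim genes by construction, and the fold of 74 genes shrank by over 1.5 times without correction. Of 1756 recomputed values of named genes 1505 stayed inside the interval given by their bead error, 251 moved outside it and 0 changed sign while past 2-fold. Medians of several lists changed sign with a common median: COP9 signalosome 0.02 to −0.13, DNA methylation 0.05 to −0.13, LIF-STAT3 0.04 to −0.13, Wnt 0.13 to −0.06 and mitochondrial import 0.11 to −0.05. No paired analysis was possible because each group has 1 array, and no replicate could be left out. Signals near background limit what can be measured: 767 of 7286 values are bounds.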

Other observations

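Replication-dependent histone genes were singled out after their values were seen. Of 31 in the histone clusters with a value 27 were detected on both arrays, and 4 of these were at least 2-fold higher in E3R than in CGR8 cells (14.8% against 1.81% of all genes tested) and 0 lower. The 27 genes had a median log2 difference of 0.69, with 24 above 0 and 3 below. H2ac21 was 2.94-fold, H2ac11 2.89-fold, H2ac22 2.13-fold and H2ac12 2.02-fold higher. The median was 0.80 over 23 genes on chromosome 13 and 0.19 over 4 on chromosome 3. Over the 27 genes, all also detected in E3 cells, the median of E3R minus E3 was −0.57 and that of E3 minus CGR8 1.28, 2 values that reuse the arrays of the comparison. Genes of the same histone family are similar in sequence and their probes can share signal, which was not tested.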
